A study of Mus musculus with 24 samples.

Results

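The sulfotransferases (Sult), UDP-glucuronosyltransferases (Ugt) and glutathione S-transferases (Gst) were examined in liver and brain of newborn female mice. Members were taken by name, as array probes for genes called Sult or Ugt with a number, or Gst with a class letter and a number, and a probe was kept where every one of the 4 arrays in 1 or more of the 6 groups read it well above background. Of 57 matching probes for 44 genes, 52 probes for 42 genes were kept, against 41174 probes and 27845 gene names in all. The 42 genes were 8 sulfotransferases, 15 glucuronosyltransferases and 19 glutathione S-transferases. The probes of Sult1e1, an oestrogen sulfotransferase, and Sult2b1, a sterol sulfotransferase, were not well above background on any array and were left out. By accession, probes named after clones also stood for Sult2a8, Sult2a2, Gstp3 and Gstt4, which the naming rule did not reach.

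These enzymes carry out the conjugation step of drug and metabolite clearance. Sulfotransferases move a sulfate group from the donor PAPS, glucuronosyltransferases move glucuronic acid from UDP-glucuronic acid, and glutathione S-transferases join glutathione to reactive molecules, so that the products dissolve in water and leave through bile and urine. The liver is their main site, and several act on the body's own compounds, such as bilirubin, steroids, thyroid hormone and bile acids.

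The series held 24 single-colour Agilent arrays, with 4 arrays per group in each tissue. G20 pups came from serial cloning carried to generation 20, CC pups were clones made directly from cumulus cells, and NC pups were conceived by intracytoplasmic sperm injection (ICSI). All pups were female neonates, and every group had the same genetic background, a C57BL/6 x DBA2 hybrid crossed with 129/Sv. The series asks whether reprogramming faults build up with repeated cloning. All G20 arrays carry one source name, so it is not known whether they are separate pups, and p-values rest on a spread between samples that may be technical. Signal is given as log2 of the background-subtracted intensity relative to the array's own 75th percentile, so 0 is the level of that percentile. Levels of different probes are not comparable.

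Facts of the arrays that touch the results are as follows. Before scaling, the 75th percentile of signal reached 439 to 561 in G20 liver, 239 to 269 in CC liver and 276 to 341 in NC liver, and 724 to 864 in G20 brain, 402 to 465 in CC brain and 814 to 935 in NC brain. Each group of a tissue lay on its own slide, and CC arrays were scanned in a later session than G20 and NC arrays. In comparisons with CC the group therefore cannot be told apart from slide or session, and between G20 and NC it cannot be told apart from slide. Slide and session also differed between liver and brain, so tissue cannot be told apart from them either. All 7 measured hepatocyte markers were well above background on every liver array, and all 7 measured neuron markers on every brain array, while in brain 5, 5 and 4 of the 7 hepatocyte markers were well above background on every G20, CC and NC array, with sums of at most 4.22, and Apoa1 and Apob on none. Of the hepatocyte markers, Ttr is also on the list of choroid plexus markers. The summed hepatocyte markers reached 1794 to 2207 times the 75th percentile in G20 liver, 727 to 1443 in CC liver and 1801 to 2131 in NC liver. Summed muscle markers reached 1.11 to 11.1 in G20 liver, 0.496 to 139 in CC liver and 0.502 to 7.47 in NC liver, with the high values in CC replicates 1 and 2. Summed erythroid markers were 1466 to 1700 in G20 liver, 176 to 1120 in CC liver and 1255 to 1482 in NC liver, again with CC replicates 1 and 2 apart. In bulk tissue, fewer cells of a type and less RNA per cell cannot be told apart.

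Promoters are shown for Sult3a1, Sult5a1, Ugt2a3 and Ugt1a1, the 4 genes that fell in G20 liver under every processing alternative that could be run. The windows are the 300 bases around the annotated start in RefSeq (GRCm38.p6), which held a window for 39 of the 44 genes. Capitals mark matches on either strand to an HNF1 half-site (GTTAAT), a GAS element bound by STAT factors (TTCNNNGAA), an antioxidant response element (TGACNNNGC) or a dioxin response element (GCGTG). The windows lie at chr10:33857472-33857771 (plus strand), chr8:123158231-123158530 (minus strand), chr5:87337146-87337445 (minus strand) and chr1:88211709-88212008 (plus strand), and each is written 5′ to 3′ along its gene.
Sult3a1: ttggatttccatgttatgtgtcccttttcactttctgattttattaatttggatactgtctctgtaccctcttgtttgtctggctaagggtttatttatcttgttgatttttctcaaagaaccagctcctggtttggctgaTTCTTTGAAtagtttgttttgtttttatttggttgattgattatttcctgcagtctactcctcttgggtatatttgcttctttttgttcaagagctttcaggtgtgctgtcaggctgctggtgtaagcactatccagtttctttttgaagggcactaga
Sult5a1: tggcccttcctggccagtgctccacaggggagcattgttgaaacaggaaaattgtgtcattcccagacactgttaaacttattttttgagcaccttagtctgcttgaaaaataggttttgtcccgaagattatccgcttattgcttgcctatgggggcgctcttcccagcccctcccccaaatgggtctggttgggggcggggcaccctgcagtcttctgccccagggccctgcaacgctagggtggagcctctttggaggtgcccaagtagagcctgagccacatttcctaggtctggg
Ugt2a3: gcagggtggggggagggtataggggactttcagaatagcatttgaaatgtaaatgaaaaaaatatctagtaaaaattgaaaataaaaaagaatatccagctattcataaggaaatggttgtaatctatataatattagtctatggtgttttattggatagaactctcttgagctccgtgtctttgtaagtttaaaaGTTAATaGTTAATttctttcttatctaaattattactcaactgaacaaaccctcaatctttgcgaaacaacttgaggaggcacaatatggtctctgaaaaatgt
Ugt1a1: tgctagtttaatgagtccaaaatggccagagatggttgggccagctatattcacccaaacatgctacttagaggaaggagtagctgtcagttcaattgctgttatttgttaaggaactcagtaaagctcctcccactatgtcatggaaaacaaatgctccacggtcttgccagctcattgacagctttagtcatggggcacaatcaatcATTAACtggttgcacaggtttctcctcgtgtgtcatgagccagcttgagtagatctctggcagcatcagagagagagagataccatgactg

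The 4 windows did not share a marked motif. Sult3a1 held 1 GAS match, Ugt1a1 held 1 HNF1 half-site, Ugt2a3 held 2 HNF1 half-sites that are separated by a single base, and Sult5a1 held none of these letters. HNF1 half-sites occurred in 7 of 49 windows of the enzyme genes (14.3%) and in 7.1% of all 32851 windows. GAS matches occurred in 6.12% and 8.3%, antioxidant elements in 6.12% and 12.4%, and dioxin elements in 22.4% and 32.4%. A match is a description of the letters and not a site, and several genes had more than 1 window.

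Of the 42 genes, 24 were measured in both tissues (4 Sult, 3 Ugt and 17 Gst), and the other 18 passed the filter on dim probes through liver alone, so that only a bound or nothing can be given for brain. Among the 24, liver was higher than brain for 22 and lower for 2 in each group of pups (limma adjusted p under 0.05). Over all 14729 genes measured in both tissues, 87.3% were called in G20 (50.8% higher and 36.5% lower), 84.5% in CC (46.8% higher and 37.6% lower) and 87.8% in NC (50.8% higher and 37% lower). The median difference over the 24 genes was 2.92 in G20, 2.76 in CC and 3.03 in NC on the log2 scale, beside 0.32, 0.17 and 0.31 over all genes measured in both. Over all genes tested, centring on the median in place of the 75th percentile moved the median difference to 0.43 in G20, 0.42 in CC and 0.45 in NC, from 0.06, 0.06 and 0.04.

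Sulfotransferases included genes far higher in liver and 1 far higher in brain. Sult1d1, which sulfates catecholamines and other amines in mice, was at least 684-fold higher in NC liver than in NC brain, where none of 4 arrays was well above background (limma adjusted p = 1.32e-21). Bounds of this kind set the bright group's mean against the dimmest measurable level on the dim group's arrays. Sult1a1, the main phenol sulfotransferase, had 5.71, 5.75, 5.80 and 5.73 in G20 liver, 5.77, 5.80, 5.84 and 6.05 in CC liver and 5.43, 5.65, 5.59 and 5.58 in NC liver. In brain it had 0.23, −0.75, 0.05 and −0.01 in G20, 0.88, 0.57, 0.20 and 0.50 in CC and 0.35, 0.11, −0.03 and 0.38 in NC, so that the tissues did not overlap in any group. Sult4a1, a sulfotransferase of the nervous system with no established substrate, ran the other way. It had −2.37, −1.93, −2.02 and −1.84 in G20 liver and 3.46, 3.87, 3.44 and 3.43 in G20 brain, a difference of −5.59 ± 0.22 (SE, n = 4 per tissue, limma adjusted p = 2.68e-16). The same difference was −5.78 ± 0.22 in NC (limma adjusted p = 1.49e-16).

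Of 15 glucuronosyltransferases, 12 had no array well above background in NC brain. Lower bounds for NC liver over NC brain were 499-fold for Ugt2b38, 488-fold for Ugt2b5, 477-fold for Ugt2b36, 364-fold for Ugt3a2 and 279-fold for Ugt1a1. Ugt2b enzymes glucuronidate steroids and drugs, Ugt1a1 glucuronidates bilirubin, and Ugt3a enzymes use other sugars than glucuronic acid. Ugt8a, which makes the galactolipids of myelin, was the only member of the family lower in liver than in brain, by −1.73 ± 0.17 in G20 and −0.81 ± 0.17 in NC (limma adjusted p = 4.44e-09 in G20 and 0.000167 in NC). Its liver signal was near background, with 4 of 4 G20, no CC and 3 of 4 NC arrays well above it.

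Glutathione S-transferases were measured in both tissues for 17 of 19 genes, Gsta1 and Gsta2 being the exceptions. Gsta3, an alpha-class enzyme, had 6.36, 6.75, 7.17 and 6.75 in G20 liver, 6.46, 6.85, 6.46 and 6.66 in CC liver and 6.83, 6.94, 6.82 and 7.15 in NC liver. In brain it had −3.19, −3.03, −3.56 and −3.07 in G20, −2.54, −2.83, −2.53 and −2.77 in CC and −3.47, −3.70, −3.76 and −3.53 in NC. The difference between liver and brain in NC was 10.55 ± 0.15 (limma adjusted p = 1.52e-23). The theta-class genes differed by 6.42 ± 0.27 (Gstt3), 5.66 ± 0.17 (Gstt2) and 3.99 ± 0.27 (Gstt1) in NC (limma adjusted p = 7.36e-16, 3.13e-18 and 5.69e-12). The mu-class genes ranged widely in NC. Gstm5 differed by 0.55 ± 0.08 and Gstm4 by 0.80 ± 0.18, and Gstm1, Gstm2, Gstm3, Gstm6 and Gstm7 by 2.43 to 3.58 (limma adjusted p = 2.69e-06 for Gstm5, 0.000239 for Gstm4 and 2.44e-10 for Gstm3). Gstp1, the pi-class enzyme, differed by 1.63 ± 0.11 (limma adjusted p = 6.62e-12), and Gsto1, an omega-class thiol transferase, by 1.87 ± 0.19 (limma adjusted p = 4.35e-09).

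Levels of other members with high probe signal are given next. Sult1d1 averaged 2.46 ± 0.18 in G20 liver, 3.09 ± 0.45 in CC liver and 2.44 ± 0.33 in NC liver (SD, n = 4 each). Ugt3a2 averaged 2.33 ± 0.48 in G20 liver, 2.31 ± 0.39 in CC liver and 1.53 ± 0.81 in NC liver, and Ugt2b38 1.71 ± 0.39, 0.80 ± 0.21 and 2.08 ± 0.08 in the same groups. Gstm1, a mu-class enzyme, averaged 6.86 ± 0.25 in G20 liver, 6.20 ± 0.30 in CC liver and 6.37 ± 0.33 in NC liver. None of these 4 genes was called between G20 and NC liver, while Sult1d1 and Ugt2b38 were called between CC and NC. In brain, Gstm5 averaged 3.33 ± 0.18 in G20, 3.58 ± 0.06 in CC and 3.28 ± 0.07 in NC, and Gstm1 3.94 ± 0.30, 4.67 ± 0.10 and 3.60 ± 0.21 in the same groups. Neither was called between G20 and NC brain, and both were called between CC and NC.

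**Figure D1:**
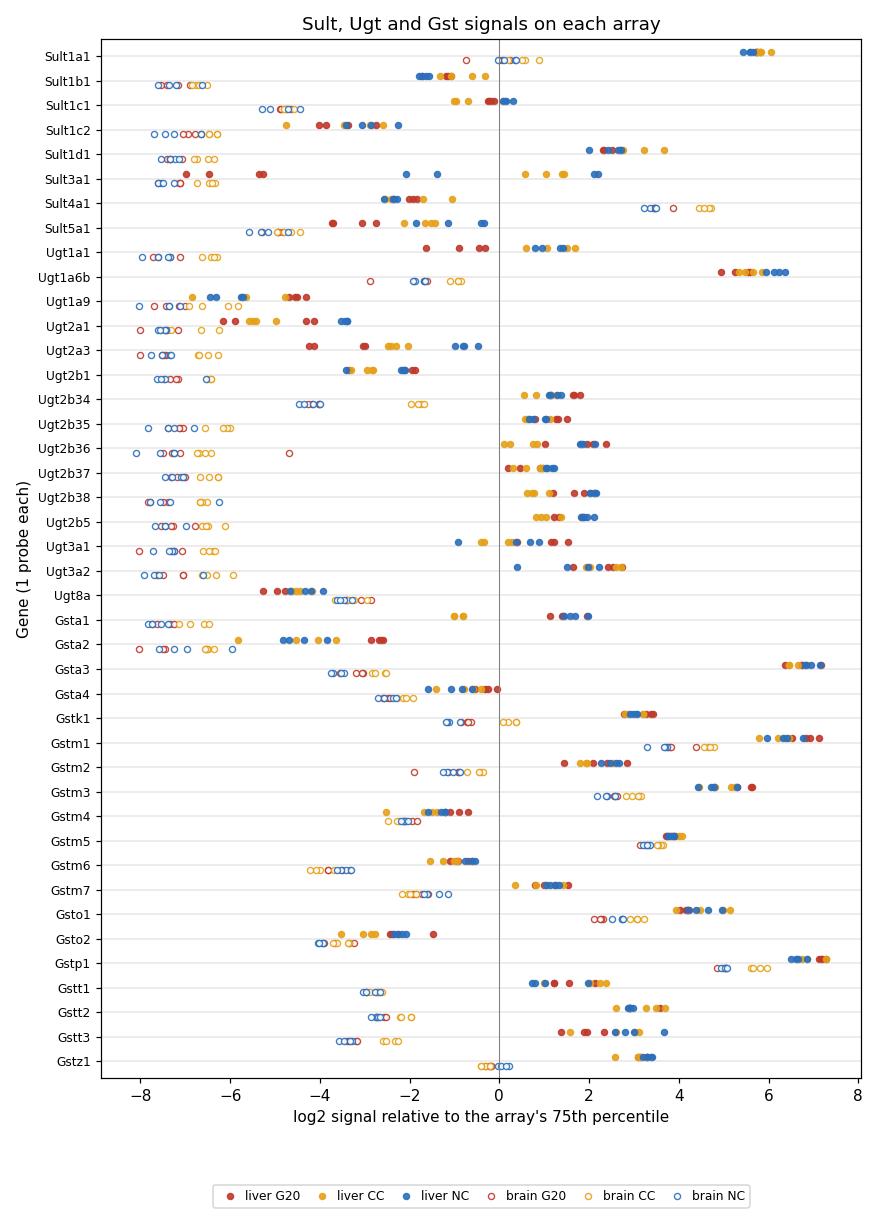
Signal of each of 42 genes on all 24 arrays, as log2 of intensity relative to the array's 75th percentile, with 1 probe per gene (the probe used in liver). Filled points are liver and open points brain, and colours give G20, CC and NC. Sult4a1 and Ugt8a are the 2 genes with open points to the right of filled ones in every group.

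In liver, 10 of 42 genes were called between G20 and NC, 3 higher and 7 lower, which is 23.8% against 7.31% of all 16365 genes tested. Of the 10, 5 had passed the filter through only 1 of the groups compared, Ugt1a9, Gsta2 and Ugt8a through G20 and Sult3a1 and Ugt2a1 through NC. Such genes had to differ in part by the filter, so the count of 10 supports nothing by itself. Among the 37 genes measured on every array of both groups, 1 was higher and 4 were lower (13.5%, against 6.51% of all 15259 such genes). The share lower was 7 of 42 against 3% of all genes, and the share higher 3 of 42 against 4.31%. The lower genes were 2 sulfotransferases (Sult3a1 and Sult5a1) and 5 glucuronosyltransferases (Ugt2a3, Ugt1a1, Ugt1a6b, Ugt2a1 and Ugt8a), and the higher ones were Ugt1a9, Gsta2 and Gstp1. By family, 2 of 8 Sult genes fell, 5 of 15 Ugt genes fell and 1 rose, and 2 of 19 Gst genes rose. The median difference was −0.18 for Sult, −0.37 for Ugt and 0.07 for Gst genes, beside 0.03 over all genes. Beside these calls, summed bile duct markers were 7.48 to 12.4 in G20 liver and 12.4 to 19.3 in NC liver, with 1 of 5 markers called lower, while 1 of 7 hepatocyte markers was called lower and no erythroid marker was called, and their part in the result was not tested. Leaving out single arrays gave 5 calls without G20 replicate 2 or NC replicate 3, and 6 without G20 replicate 4 or NC replicate 2. Centring on the median left 2 higher and 7 lower members, with 378 higher and 696 lower over all genes in place of 705 and 491, and quantile normalization left 0 higher and 7 lower. After normexp 15 members were called, 7 higher and 8 lower (35.7%), but so were 31.2% of all genes, so the total share was near that over all genes. The share lower was then 8 of 42 against 26% of all genes, and so no longer above it. The share higher was 7 of 42 against 5.16%.

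Sult3a1, which sulfates amines and is higher in female than in male liver of adult mice, had −6.47, −5.36, −5.26 and −6.99 in G20 liver, 1.39, 1.44, 0.58 and 1.04 in CC liver and 2.20, −2.08, 2.12 and −1.39 in NC liver. No G20 array was well above background, the CC arrays lay close together, and the NC arrays fell into a high and a low pair that both stayed above every G20 array. The gene was at least 63.8-fold lower in G20 than in NC (limma adjusted p = 0.00241) and at least 119-fold lower in G20 than in CC (limma adjusted p = 6.7e-05). These bounds hold for the main processing only. After normexp the log2 differences were smaller than the bounds, at −3.25 from NC and −3.83 from CC. In brain it was not well above background on any array. Liver was at least 141-fold higher than brain in CC, and no fold can be given for G20, where neither tissue was well above background.

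Sult5a1, a sulfotransferase of unknown substrate, had −3.72, −2.75, −3.07 and −3.70 in G20 liver, −1.43, −2.12, −1.65 and −1.52 in CC liver and −0.35, −0.40, −1.15 and −1.86 in NC liver. All G20 arrays lay below all others, and it was 5.16-fold lower in G20 than in NC (−2.37 ± 0.33, limma adjusted p = 0.00233). The other 6 sulfotransferases, each on its brightest probe, differed by −0.60 to 0.39 between G20 and NC liver and did not pass the test. With every probe tested, the dimmer Sult1b1 probe was called higher in G20, by 0.99 ± 0.22 (limma adjusted p = 0.021). Among the 6, Sult1a1 and Sult1c1 were without overlap between G20 and NC, at 0.19 ± 0.08 and −0.37 ± 0.20 (limma adjusted p = 0.188 and 0.277). The share of all genes without overlap is not given here, so lack of overlap in genes that did not pass is description only.

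Ugt2a3, which glucuronidates bile acids in humans, had −4.25, −3.04, −3.00 and −4.14 in G20 liver, −2.48, −2.04, −2.31 and −2.41 in CC liver and −0.48, −0.78, −0.98 and −0.82 in NC liver. The 3 groups did not overlap, and the gene was 7.19-fold lower in G20 than in NC (−2.85 ± 0.27, limma adjusted p = 0.000298). Ugt1a1 had −0.90, −0.45, −0.33 and −1.63 in G20 liver, 1.07, 0.59, 1.50 and 1.69 in CC liver and 0.96, 1.41, 1.36 and 0.80 in NC liver. G20 arrays lay below all CC and NC arrays, which overlapped each other. Ugt1a1 was 3.89-fold lower in G20 than in NC (−1.96 ± 0.30, limma adjusted p = 0.00389). The calls of Sult5a1, Ugt2a3 and Ugt1a1 held in all 16 alternatives and that of Sult3a1 in all 15 that could be run, among them normexp background correction, where the differences of Sult5a1, Ugt2a3 and Ugt1a1 were −1.81, −1.99 and −1.52.

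**Figure D2:**
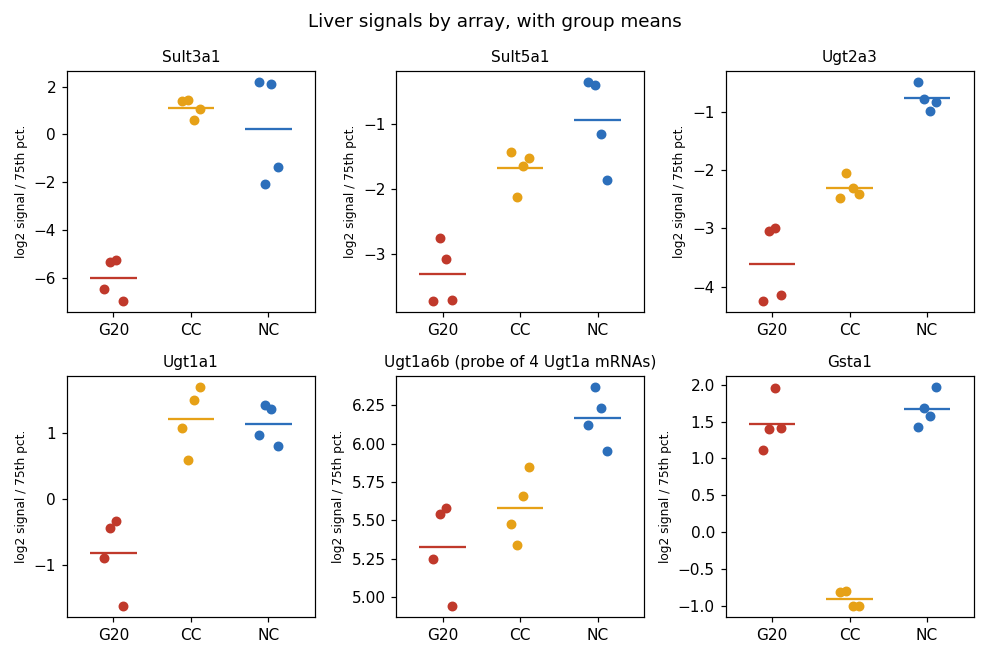
Liver signal of 6 genes on each array, as log2 of intensity relative to the array's 75th percentile, in G20, CC and NC pups. Points are arrays (4 per group) and lines are group means, and every panel has its own scale. Sult3a1, Sult5a1, Ugt2a3 and Ugt1a1 were lowest in all 4 G20 arrays, while Gsta1 was lowest in all 4 CC arrays.

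The Ugt1a genes of chromosome 1 share their last exons and differ in their first, so the place of a probe decides what it reads. A pair of probes carries the name Ugt1a6b. The brighter one (chromosome 1, 90050068 to 90050127 in mm8, the build of the array's coordinates) is listed against 4 transcripts, of Ugt1a1, Ugt1a5, Ugt1a6b and Ugt1a10, and lies downstream of the Ugt1a1 probe at 90043476 to 90043535. It had 5.25, 5.54, 5.58 and 4.94 in G20 liver, 5.48, 5.34, 5.66 and 5.85 in CC liver and 6.12, 6.37, 6.23 and 5.95 in NC liver. Neither clone group overlapped NC, and G20 was 1.79-fold lower than NC (−0.84 ± 0.16, limma adjusted p = 0.0108), a difference of −0.20 that was not called after normexp. The other probe is listed against Ugt1a6b alone (89938426 to 89938485). With every probe tested, it differed between G20 and NC by 0.07 ± 0.14 (limma adjusted p = 0.795), while the shared probe fell (−0.84 ± 0.16, limma adjusted p = 0.0115). The call was thus made on a probe for several Ugt1a transcripts and not on the one listed for Ugt1a6b alone. Ugt1a9, which glucuronidates phenols, was well above background on 4 of 4 G20 liver arrays and on none elsewhere, and passed the filter through G20 alone. The bound was at least 2.61-fold higher in G20 than in NC (limma adjusted p = 0.0212), but it was lower after normexp (−1.41, limma adjusted p = 0.0329), so its direction is not settled.

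Ugt2a1, best known as an olfactory enzyme, fell by 1.68 ± 0.40 in G20 (limma adjusted p = 0.0276). Its values were −6.17, −5.89, −4.32 and −4.12 in G20 liver, where background was clearly exceeded on 2 of 4 arrays, against −3.40, −3.39, −3.53 and −3.45 in NC liver. This call was lost in 6 of 15 alternatives. A second Ugt2a1 probe was well above background on 4 of 4 NC liver arrays and on no G20 or CC array. With every probe tested it was called lower in G20 (−2.57 ± 0.15, limma adjusted p = 8.7e-06). It passed the filter through NC alone, and its G20 values lay near background. Ugt8a had −4.96, −4.78, −4.65 and −5.26 in G20 liver against −4.67, −3.94, −4.34 and −4.19 in NC liver. It fell by 0.63 ± 0.17 (limma adjusted p = 0.0474), with overlap between the groups, and lost the call in 9 of 15 alternatives.

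Ugt2a and Ugt2b genes lie in one cluster on chromosome 5, followed by Sult1b1 and Sult1d1. Along it, Ugt2a3 and Ugt2a1 fell in G20 liver while none of the other 9 measured genes was called on its brightest probe. The dimmer probe of Sult1b1 was called higher with every probe tested (0.99 ± 0.22, limma adjusted p = 0.021). The flanks of Ugt2a3 were Ugt2b37 (−0.49 ± 0.18, limma adjusted p = 0.127) and Ugt2b38 (−0.37 ± 0.17, limma adjusted p = 0.219). The start of the cluster had positive differences that did not pass, of 0.34 for Ugt2b34, 0.15 for Ugt2b1 (−0.73 after normexp, not called) and 0.36 for Ugt2b35. In CC liver the called genes of the cluster were Ugt2b36 (−1.42 ± 0.26), Ugt2b38 (−1.28 ± 0.17), Ugt2b5 (−0.90 ± 0.16), Ugt2a3 (−1.55 ± 0.27) and Ugt2a1 (at least 3.42-fold, with no CC array well above background), all lower, with Sult1b1 (0.84 ± 0.20) and Sult1d1 (0.65 ± 0.22) higher. G20 and CC were set against the same NC arrays. The probe named Ugt2b36 is also listed against Ugt2b37, and the probe named Ugt2b38 also against Ugt2b37 and Ugt2b5, so these genes cannot be fully told apart.

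**Figure D3:**
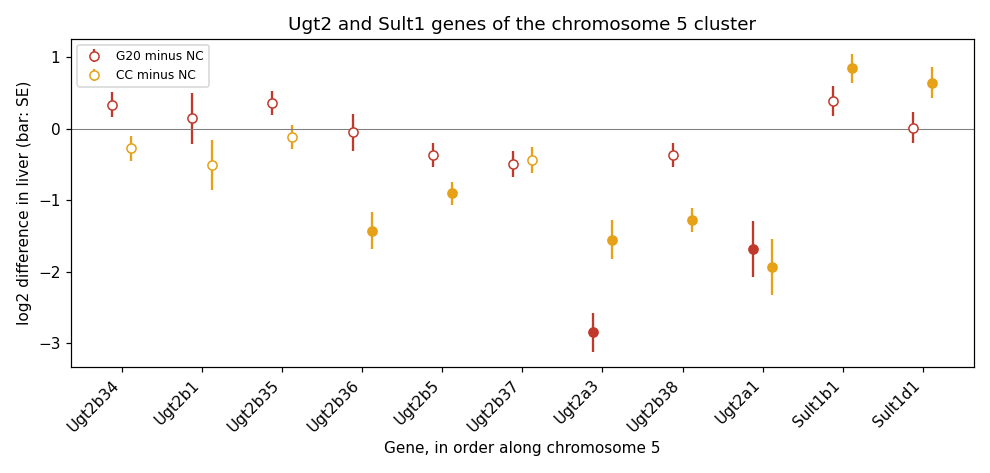
Log2 differences in liver for 11 genes in their order along chromosome 5, G20 minus NC and CC minus NC, with bars for standard errors. Filled points passed the test (limma adjusted p under 0.05). Ugt2a3 and Ugt2a1 were called lower in both comparisons, which share the NC arrays.

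Glutathione S-transferases had the lowest share of calls of the 3 families in G20 liver. Gstp1 had 7.29, 7.13, 7.16 and 7.19 in G20 liver against 6.66, 6.51, 6.61 and 6.86 in NC liver, without overlap. It rose by 0.53 ± 0.13 (1.45-fold, limma adjusted p = 0.0324), and its second probe rose by 0.52 ± 0.13 with every probe tested (limma adjusted p = 0.0315). The call was lost in 11 of 16 alternatives, although the difference stayed between 0.46 and 1.07, and the brighter probe is also listed against Gstp2. Gsta2, an alpha-class enzyme whose probe is also listed against Gsta1, had −2.86, −2.60, −2.69 and −2.64 in G20 liver against −4.69, −3.85, −4.82 and −4.35 in NC liver. Its difference was 1.73 ± 0.38 (limma adjusted p = 0.0206), whereas normexp gave −0.81 without a call. The Gsta2 call was lost in 6 of 15 alternatives, among them quantile normalization, and 3 of 4 NC liver arrays were well above background. Gsta4, which clears products of lipid peroxidation, and Gstt3 were without overlap at 0.74 ± 0.24 and −1.12 ± 0.34 and did not pass (limma adjusted p = 0.0826 and 0.0714). For them too, lack of overlap has no share over all genes beside it.

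The CC livers gave 13 called genes of 42 against NC, 3 higher and 10 lower (31%), where 40.7% of all genes tested were called, 19.7% higher and 21% lower. The share among these enzymes was therefore below that over all genes. By family, 3 Sult genes rose and 1 fell, 6 Ugt genes fell, and 3 Gst genes fell. Gsta1, whose probe is also listed against Gsta2, had the largest difference of the 13. It had 1.12, 1.40, 1.95 and 1.41 in G20 liver, −0.82, −0.80, −1.01 and −1.01 in CC liver and 1.43, 1.68, 1.58 and 1.97 in NC liver, so the CC arrays stood apart from the rest. It fell 5.95-fold in CC (−2.57 ± 0.16, limma adjusted p = 5.46e-07), and was the 1 member called after normexp (−1.76). It differed by −0.20 ± 0.16 between G20 and NC (limma adjusted p = 0.498). The other calls lower in CC were Sult1c1 (−0.81 ± 0.20), the shared Ugt1a probe (−0.58 ± 0.16), Gsto2 (−0.84 ± 0.21) and Gstm6 (−0.55 ± 0.13), beside the 5 Ugt2 genes named above. Sult1a1 rose by 0.31 ± 0.08 (limma adjusted p = 0.011). The role of the differing marker sums and of the scan session in these results was not tested.

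**Figure D4:**
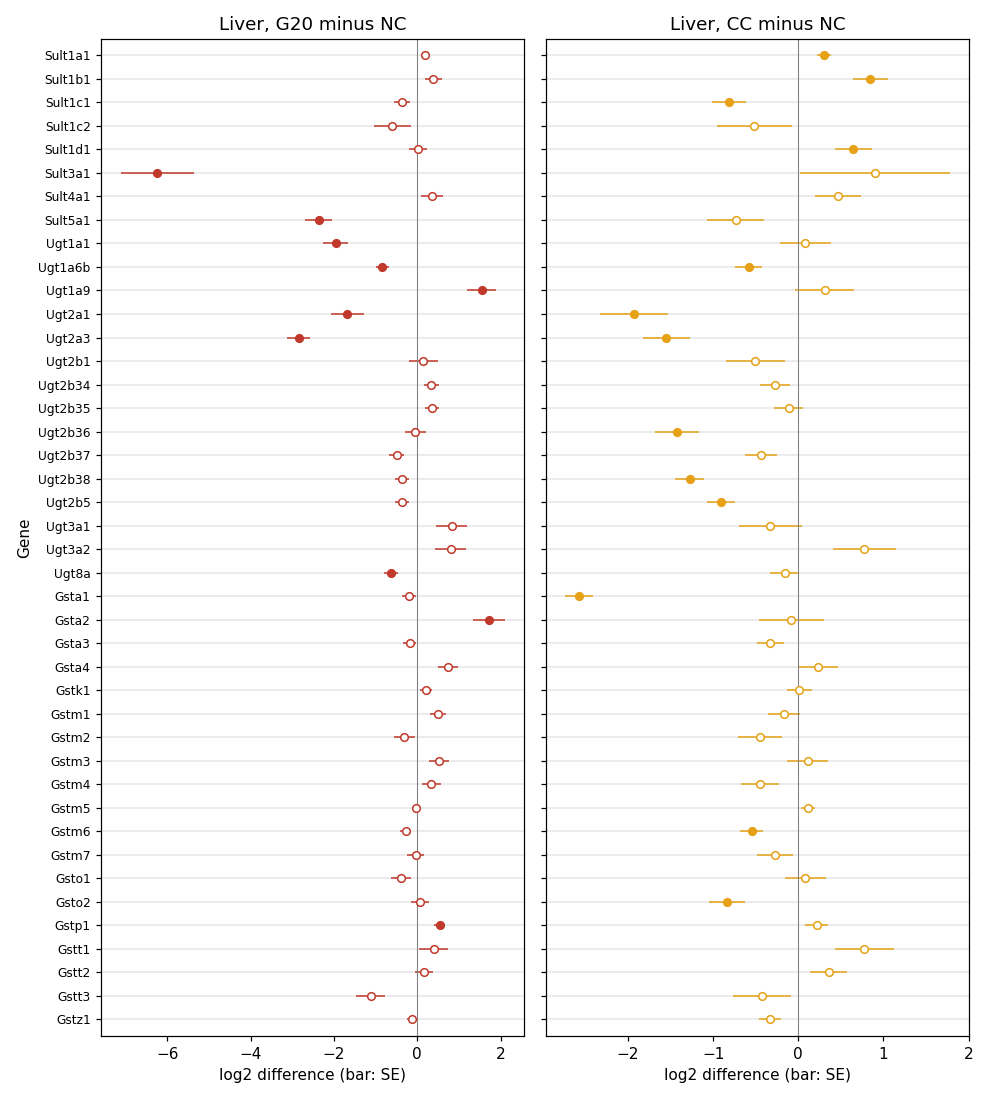
Log2 differences in liver for 42 genes, G20 minus NC on the left and CC minus NC on the right, with bars for standard errors. Filled points passed the test (limma adjusted p under 0.05), 10 on the left and 13 on the right. On the left, the point for Sult3a1 rests on G20 arrays that were not well above background. Gsta1 at −2.57 was the largest difference on the right.

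Between the clone groups in liver, 18 of 42 genes were called (12 higher and 6 lower in G20 than in CC, against 45% of all genes, 24.6% higher and 20.4% lower). Those lower in G20 were Sult3a1, Sult5a1 (−1.63 ± 0.33), Ugt1a1 (−2.04 ± 0.30), Ugt2a3 (−1.30 ± 0.27), Sult1d1 (−0.63 ± 0.22) and Ugt8a, whose CC arrays were not well above background. The largest higher in G20 were Gsta1 (2.38 ± 0.16), Gsta2 (1.81 ± 0.38), Ugt2b36 (1.38 ± 0.26), Ugt3a1 (1.15 ± 0.37) and Ugt1a9 (at least 1.54-fold, with no CC array well above background), of which Gsta2 and Ugt1a9 turned negative after normexp (−0.32 and −0.91, not called). Centring on the median left 8 higher and 9 lower members, and 2886 higher and 4982 lower over all genes in place of 4030 and 3331. After normexp 10 members were called (23.8%), 6 higher and 4 lower, against 13.6% of all genes, 7.35% higher and 6.23% lower.

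The deposited matrix of processed values handled the CC arrays in another way, and this touches each comparison with CC. Its G20 and NC columns equalled the scanner signal times 1 factor per array, while each probe in its CC columns had been multiplied by a factor of its own. With those values, 0 of 14265 liver genes passed between G20 and CC in limma, and 0 had an unadjusted p under 0.05. These counts are no test of G20 against CC. Over probes the mean G20 minus CC difference had an SD of 0.0944 on the log2 scale in the matrix and 0.537 in the scanner signal, against 0.298 and 0.296 for G20 minus NC. The CC minus NC differences from the matrix were −2.83 for Ugt2a3, −2.65 for Sult5a1 and −2.03 for Ugt1a1, beside −2.94, −2.44 and −1.97 for G20 minus NC. From the scanner signal Ugt1a1 differed by 0.08 ± 0.30 between CC and NC (limma adjusted p = 0.848). No source used here gives the reason for the factor, and all other values in this text come from the scanner signal.

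In brain, 1 of 24 genes was called between G20 and NC (4.17%, against 1.77% of all 18299 genes, 1.24% higher and 0.536% lower), and 8 had an unadjusted p under 0.05. Gsto1 had 2.10, 2.31, 2.26 and 2.25 in G20 brain, 3.06, 2.92, 3.22 and 3.06 in CC brain and 2.74, 2.74, 2.50 and 2.76 in NC brain. The 3 groups did not overlap, and Gsto1 fell by 0.45 ± 0.09 in G20 against NC (1.37-fold, limma adjusted p = 0.025). The call was lost in 9 of 16 alternatives, with differences of −0.52 to −0.41. The count was 0 without G20 replicate 1 or 4 or NC replicate 1, 2 or 4, and 3 without G20 replicate 3. Summed erythroid markers were 197 to 216 in G20 brain and 79.9 to 174 in NC brain, none of them called. Summed macrophage markers were 1.29 to 1.61 in G20 brain and 1.70 to 1.84 in NC brain, with 1 of 4 tested (C1qb, a complement gene of microglia) called lower (−0.52 ± 0.11, limma adjusted p = 0.0432). Summed choroid plexus markers were 0.619 to 4.77 in G20 brain and 3.75 to 5.16 in NC brain. Those of the meninges were 3.425 to 7.343 in G20 brain and 6.331 to 7.498 in NC brain, and neither list had a called marker. The part of any of these lists in the result was not tested. In liver Gsto1 differed by −0.40 ± 0.24 (limma adjusted p = 0.335). Among genes that did not pass in brain, Gstk1, Gstm1, Gsto2 and Gstz1 were without overlap, at 0.36 ± 0.09, 0.34 ± 0.14, 0.45 ± 0.13 and −0.31 ± 0.08 (limma adjusted p = 0.0738, 0.216, 0.11 and 0.0646). The share of all brain genes without overlap is not given here, so this is description only. Gstz1 isomerises maleylacetoacetate in tyrosine breakdown and Gstk1 belongs to the kappa class of mitochondria and peroxisomes. No Sult or Ugt gene of the 7 measured in brain was called, and 0 had an unadjusted p under 0.05 in limma.

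The difference between G20 and NC itself differed between the tissues for 3 of 24 genes, 1 higher and 2 lower (3.85% of all genes, 1.69% higher and 2.15% lower). Sult5a1 had the largest such difference, at −2.56 ± 0.39 (limma adjusted p = 0.000769). In brain it had −4.82, −4.94, −5.30 and −4.94 in G20 and −4.70, −5.59, −5.32 and −5.15 in NC, which overlapped and differed by 0.19 ± 0.18 (limma adjusted p = 0.576). Ugt8a differed by −0.91 ± 0.24 and Gstp1 by 0.58 ± 0.16 between the tissues (limma adjusted p = 0.035 and 0.0381). None of the 3 was called after normexp, where 9 members had an unadjusted p under 0.05 in limma. The count was 1 without G20 liver replicate 4, NC liver replicate 2 or NC brain replicate 1, 3 or 4, and 5 without G20 liver replicate 3. Centring on the median left 0 higher and 2 lower members, and 151 higher and 339 lower over all genes in place of 250 and 318.

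In CC brain 19 of 24 genes were called against NC (16 higher and 3 lower), where 69.3% of all genes were called, 41.5% higher and 27.8% lower. Markers of several cell types were called with them: 3 of 5 hepatocyte markers were higher (Fgb, Ahsg and Afp), 4 of 6 astrocyte markers were higher and 1 lower, and 1 of 7 neuron markers was higher and 5 lower. Their part in the result was not tested. Ugt2b34 had −4.01, −4.02, −4.18 and −4.26 in G20 brain, −1.74, −1.81, −1.69 and −1.98 in CC brain and −4.00, −4.16, −4.47 and −4.35 in NC brain. CC arrays stood apart, by 2.44 ± 0.11 from NC (limma adjusted p = 3.74e-08). Gstk1 rose by 1.34 ± 0.09, Sult4a1 by 1.22 ± 0.11, Gstm1 by 1.07 ± 0.14 and Gstt3 by 0.99 ± 0.10 in CC. Of these, Sult4a1 and Gstm1 each had a second probe that was not called. After normexp 9 members were called (37.5%), 8 higher and 1 lower, against 29.1% of all genes, 19.3% higher and 9.81% lower. Between G20 and CC brain 16 genes were called, 2 higher and 14 lower in G20 (67.6% of all genes, 28.6% higher and 39% lower). Centring on the median left 0 higher and 17 lower, and 3867 higher and 8735 lower over all genes in place of 5226 and 7135. The 12 genes whose CC minus NC difference differed between the tissues all had a lower difference in liver than in brain (54% of all genes, 19.4% higher and 34.6% lower), with Ugt2b34 at −2.71 ± 0.21 the farthest (limma adjusted p = 2.67e-09).

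Genes with a second probe gave a check on these CC values. With every probe tested, Gstp1 in CC brain was higher on its brighter probe (0.74 ± 0.09, limma adjusted p = 1.3e-05) and lower on the other (−0.36 ± 0.09, limma adjusted p = 0.00351). Sult4a1 was higher on one probe (1.22 ± 0.11) and differed by −0.07 ± 0.09 on the other (limma adjusted p = 0.515), and Gsta3 had 0.95 ± 0.12 and 0.18 ± 0.13. Gstm1 had 1.07 ± 0.14 and 0.22 ± 0.16, the second not called (limma adjusted p = 0.23). Gstm7 was called lower on both probes, at −0.56 ± 0.12 and −1.19 ± 0.10. For Gstp1 the same order was seen in CC liver, at 0.21 ± 0.13 and −0.54 ± 0.13. For G20 minus NC the paired probes lay closer together, with 0.53 and 0.52 for Gstp1 in liver and 0.17 and 0.13 for Sult4a1 in brain, although Ugt1a6b, Ugt2a1 and Sult1b1 in liver had unequal pairs. Sult1b1, which sulfates thyroid hormone, had 0.39 ± 0.20 and 0.99 ± 0.22 on its probes in G20 liver (limma adjusted p = 0.28 and 0.021).

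**Figure D5:**
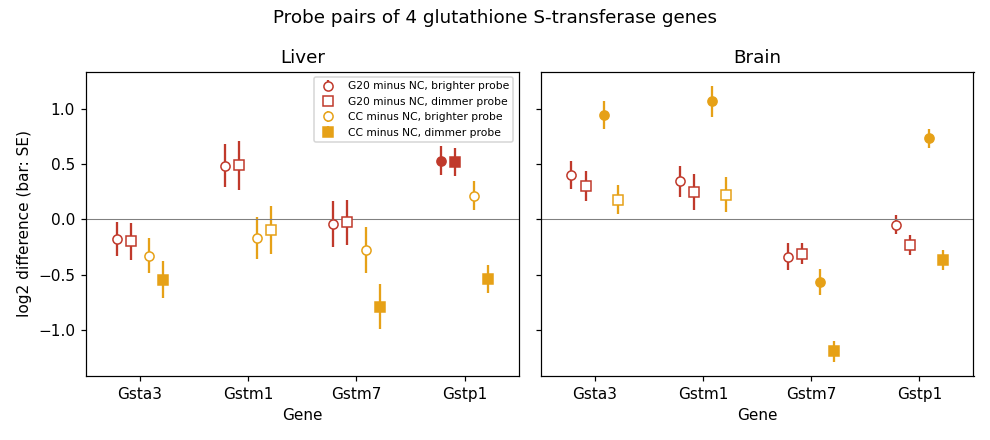
Log2 differences from NC for both probes of 4 glutathione S-transferase genes, in liver on the left and brain on the right, with bars for standard errors and filled points where the probe passed the test. Circles are the brighter and squares the dimmer probe. The G20 pairs lay close together, and the Gstp1 pair had opposite signs in CC in both tissues.

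Genes around the conjugation step were read from lists of donors, regulators and transporters, whose counts stand beside 7.31% of all genes called in G20 liver (4.31% higher and 3% lower). In G20 liver none of 9 genes for the sulfate donor, 5 for the glucuronate donor, 16 NRF2 targets or 14 xenobiotic receptors and partners passed limma, with 2, 1, 1 and 3 at an unadjusted p under 0.05. Of 12 genes of glutathione supply 1 fell, the dipeptidase Dpep1 (−0.97 ± 0.14, limma adjusted p = 0.00324). Of 7 further GST genes 1 fell, the microsomal Mgst3 (−0.55 ± 0.11, limma adjusted p = 0.0116), and of 13 other conjugating enzymes 2 fell, the arsenic methyltransferase As3mt (−0.50 ± 0.13, limma adjusted p = 0.0443) and the acetyltransferase Nat2 (−0.33 ± 0.08, limma adjusted p = 0.0255). Of 9 targets of the receptors CAR, PXR and AhR, 4 rose and 1 fell. Cyp2b10 rose by 1.69 ± 0.33, Cyp2b13 by 1.69 ± 0.32 and Cyp2b9 by 1.52 ± 0.20, all cytochromes of the CAR-responsive subfamily, and Tiparp, an AhR target, by 0.69 ± 0.19 (limma adjusted p = 0.0124, 0.0117, 0.00174 and 0.0489), while Cyp2c29 fell by 1.15 ± 0.15. In CC liver 2 of the 9 were called higher (Tiparp and Cyp2b13) and 3 lower (Aldh1a7, Cyp2c29 and Cyp3a11), where 40.7% of all genes were called.

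Among 8 measured transporters of conjugates and bile acids, a list of export pumps with some uptake carriers, 1 rose and 2 fell in G20 liver. Abcc3, which returns conjugates to blood, rose by 0.44 ± 0.10, and Abcc2, which exports bilirubin glucuronides into bile, fell by 0.83 ± 0.15, as did Abcc6 by 0.69 ± 0.15 (limma adjusted p = 0.0223, 0.00906 and 0.0182). In CC liver Abcc3 also rose (0.60 ± 0.10), with Abcc4 (0.55 ± 0.11) and Abcc1 (0.30 ± 0.11). Of 16 NRF2 targets in CC liver 2 rose and 7 fell, including Nqo1 (−1.16 ± 0.15) and Blvrb (−1.61 ± 0.12), where 40.7% of all genes and 5 of 7 hepatocyte markers (all lower) were called. In G20 brain none of the 9 lists had a called member in limma, and 0 to 3 members of each had an unadjusted p under 0.05.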

How the data were processed

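The intensity values deposited by the authors were scanner files that, per the file headers, hold background-subtracted signal that was not normalized between arrays, and spot flags of 0 or 1. The submitters' processing notes name Feature Extraction 9.5.3.1 (Agilent). The deposited matrix holds linear signal values, whose scaling and, in CC columns, centring are not given in the sources used here. Its 34140 probes all matched the scanner files, with column medians of 223.6 to 489.5. The SD over probes of the log2 ratio of matrix to scanner signal was 0.0103 to 0.0554 in NC and G20 columns and 0.627 to 0.657 in CC columns.

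Here, outlier spots were dropped, spots of a probe averaged and log2 signal centred on each array's 75th percentile. A gene was read from its brightest probe among those that exceeded background clearly on every array of some group in the tissue. Groups were compared with limma 3.58.1 in R 4.3.3 over the 12 arrays of a tissue, or all 24 arrays for tissue comparisons, with Benjamini-Hochberg adjustment over all genes at 0.05, and errors are model standard errors. The precision is limited by 4 arrays per group. Alternatives changed background correction, scaling, filter, probe choice, outlier spots, the replicate block, the arrays fitted, or used the matrix. For NC and CC, brain and liver share animal labels, but the tissue comparisons printed here held no animal term and treated all arrays as independent. Same-numbered deviations of brain and liver correlated at 0.168 to 0.228 in CC and 0.0368 to 0.303 in NC. Between groups of a tissue the correlations were −0.18 to 0.13, so replicate numbers did not pair samples. Named genes were taken from those called, at most 10 per direction, and the 3 brightest of each family by level. From the other lists they were called genes, at most 4 per list and direction. Not every called gene was named, in particular in CC minus NC brain and in G20 minus CC of both tissues. A gene left unnamed may therefore have been called. The members and lists were chosen with earlier results of these data known. The fits were checked on simulated data.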

Additional observations from a re-analysis of the deposited data

Results flagged for a closer look

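Within groups of 4 arrays, 9 of 188 groups had an array far from the other 3, where chance alone gives about 1 in 20 groups. In G20 liver, replicate 1 had −3.35 for Ugt2b1, against −2.12 to −1.89 on the others, and 3.57 for Gstt2, against 2.89 to 2.91. In CC liver, replicate 1 had 2.57 for Gstz1, against 3.09 to 3.16. In NC liver, replicate 4 had −3.42 for Ugt2b1, against −2.19 to −2.11. G20 brain replicate 2 stood apart for 3 genes, with 4.39 for Gstm1 (others 3.75 to 3.83), 3.12 for Gstm3 (others 2.56 to 2.62) and 3.87 for Sult4a1 (others 3.43 to 3.46). In NC brain, replicate 1 had 3.29 for Gstm1 (others 3.68 to 3.73) and replicate 3 had 2.50 for Gsto1 (others 2.74 to 2.76), which is the gene called in G20 brain.

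The change from NC differed between liver and brain, by limma's test of the difference itself, for 3 genes in G20 and 12 in CC. These are 12.5% and 50% of the 24 members, against 3.85% and 54% of all 14767 genes, so the CC share lay below that over all genes. In CC brain, Gsta3, Gstm1, Gstp1 and Sult4a1 had second probes with other values, given above. Liver minus brain, the G20 differences were −2.56 ± 0.39 for Sult5a1, −0.91 ± 0.24 for Ugt8a and 0.58 ± 0.16 for Gstp1 (limma adjusted p = 0.000769, 0.035 and 0.0381). The CC differences were −2.71 for Ugt2b34, −1.42 for Ugt1a6b, −1.42 for Gstt3, −1.33 for Gstk1, −1.32 for Gsto2, −1.27 for Gsta3, −1.24 for Gstm1, −1.22 for Sult5a1, −1.03 for Gstm2, −0.97 for Sult1c1, −0.75 for Sult4a1 and −0.52 for Gstp1, with limma adjusted p from 2.67e-09 to 0.0413.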

How the results depend on the processing

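Counts of called enzyme genes depended on the background correction and the source of the values. After normexp the counts were 1 in CC minus NC liver, 10 in G20 minus CC liver, 0 in G20 minus NC brain, 9 in CC minus NC brain, 6 in G20 minus CC brain, and 0 and 4 for the tissue difference of the G20 and CC effects. The shares called over all genes, in the same order, were 1.4%, 13.6%, 0.0109%, 29.1%, 20.9%, 1.58% and 11.7%. The 15 calls of G20 minus NC liver after normexp included 8 of the 10, where 31.2% of all genes were called. With the deposited matrix, which held 36 of the genes in liver, the counts were 5 in G20 minus NC, 6 in CC minus NC (2 shared) and 0 in G20 minus CC liver, 0 in CC minus NC and 1 in G20 minus CC brain, 22, 21 and 22 of 23 between tissues in G20, CC and NC, and 4 for the tissue difference of the CC effect. Over all genes the matrix gave 6.85%, 8.52%, 0%, 0.703%, 1.36%, 89.6%, 89.8%, 89.9% and 6.47% called, in the same order. Without the filter on dim probes the counts of 44 genes were 0 in G20 minus NC, 35 in CC minus NC and 35 in G20 minus CC brain, and 8 and 24 for the tissue differences. The shares over all genes were then 0.506%, 72.6%, 70.7%, 3.48% and 42%. The matrix's CC columns lie close to G20 probe by probe, so its counts between G20 and CC are no test of that difference. The counts between tissues include 18 genes that passed the filter through liver alone. The cause of the shifts was not tested. In limma, CC minus NC brain with the matrix had 4 genes at an unadjusted p under 0.05, and G20 minus NC brain with a count of 0 had 3 to 8 in these settings. The count was also 0 there with only the 2 groups compared.

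With the replicate number as a block, the count in G20 minus NC brain was 0 and that in G20 minus NC liver 7, and no other count moved by over 1.5 times. Of all genes, 0.814% in brain and 4.41% in liver were called between G20 and NC with this block. Leaving out single arrays gave 5 to 9 in G20 minus NC, 12 to 16 in CC minus NC and 13 to 18 in G20 minus CC liver, 0 to 3, 18 to 19 and 13 to 16 in brain, 41 to 42, 40 to 42 and 42 to 42 between tissues in G20, CC and NC, and 1 to 5 and 11 to 13 for the tissue differences.

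Signs turned as follows, the cause not tested. The matrix's CC columns lie close to G20 probe by probe, so its signs between G20 and CC are no test of that difference. After normexp, G20 minus NC liver gave −0.81 for Gsta2 and −1.41 for Ugt1a9, G20 minus CC liver −0.32 for Gsta2, −0.15 for Gsto2 and −0.91 for Ugt1a9, CC minus NC brain 0.80 for Gstm6, and G20 minus CC brain −0.19 for Gstm4 and −0.42 for Gstm6. After quantile normalization Gstm5 in brain gave −0.0534 in CC minus NC and 0.0595 in G20 minus CC. With the matrix, CC minus NC gave −2.03 for Ugt1a1 and 0.16 for Ugt2b36 in liver and −0.0052 for Gstt2 in brain. G20 minus CC liver gave −0.0341 for Gsta1, 0.21 for Sult5a1, 0.0567 for Ugt1a1, −0.0275 for Ugt2b34, −0.16 for Ugt2b35, −0.19 for Ugt2b36, −0.17 for Ugt2b38, −0.0369 for Ugt2b5 and −0.21 for Ugt3a1. G20 minus CC brain gave 0.026 for Gsta3, 0.10 for Gstk1, 0.11 for Gstm1, 0.0742 for Gstt2, 0.0392 for Gstt3, 0.0746 for Sult4a1 and 0.0406 for Ugt2b34. Signal near background limits Sult3a1, Ugt1a9, Gsta2, Ugt2a1 and Ugt8a, each with liver arrays not well above background.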
